A study of Arabidopsis thaliana with 6 samples.

Results

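The NRT2 proteins of Arabidopsis thaliana are the high-affinity nitrate transporters of the plant, which take up nitrate when little of it is left in the soil. Most of them work only together with NRT3 proteins (also called NAR2), small membrane partners that bind NRT2 and keep it stable at the plasma membrane. NRT2.1 carries most of the high-affinity uptake of the root. Its transcript is known to be induced by nitrate and repressed by reduced nitrogen such as ammonium and glutamine, whereas NRT2.4 and NRT2.5 are known as genes of nitrogen starvation.

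The rule named 9 loci, NRT2.1 to NRT2.7, NRT3.1 and NRT3.2, among the 33602 genes of the deposited table. Values were found for 8 of them, and NRT3.2 (AT4G24720) was not analysed here. The samples were whole seedlings of the Columbia (Col) ecotype, grown for 12 days on nitrogen-free basal salts with 0.5% sucrose. In 3 samples the sole nitrogen source was 5 mM glutamine (Gln) and in the other 3 it was 5 mM NH4NO3, which supplies both nitrate and ammonium. The labels do not say how many seedlings made up a sample or whether replicates came from separate plates, so a p-value here reflects how far these libraries scatter, and that scatter may be technical. The supply of Gln and the lack of nitrate and ammonium came together in this design, and their effects cannot be told apart.

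Levels are in RPKM, reads per kilobase of gene and per fixed number of reads in the library, with library sizes scaled by the authors. The values imply 30269306 to 35421727 reads in genes per Gln library and 28654433 to 31980649 per NH4NO3 library. NH4NO3 replicate 2 stood apart from the rest. Among genes with 1 to 100 implied reads, 44.9% had an even read number in that library, against 57.8% to 60.9% in the other 5, so the member values that move with it are also given without it. Markers of both organs were detected, and no marker of the 3 lists was at 0 reads in all libraries. The summed level of 10 root hair markers lay between 89.9 and 116 RPKM in Gln and between 39.5 and 43.4 RPKM in NH4NO3. Of these markers 9 passed the filter on low values, and 9 were higher in Gln in the test described below, where 21.4% of all genes tested were higher and 19.8% lower. For 11 markers of inner root layers the sums were 114 to 157 RPKM in Gln and 104 to 116 RPKM in NH4NO3, with 4 members higher and 1 lower, and 45.5% of them called against 41.2% of all genes tested. For 12 shoot markers they were 30250 to 36504 RPKM in Gln and 36990 to 42886 RPKM in NH4NO3, with 9 members lower, against the 19.8% of all genes. Most of these shoot sums came from LHCB1.3 (mean 18277 RPKM in Gln and 20377 RPKM in NH4NO3) and RBCS1A (8628 and 9869 RPKM). Neither was called, so the size of the sums rests largely on genes that were not called. The difference between the group sums also holds called genes, such as RBCS3B (mean 4285 RPKM in Gln and 5881 RPKM in NH4NO3). In whole seedlings, more cells of a type and more RNA per cell cannot be told apart, and the part of organ makeup in the results below was not tested.

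The members lie on chromosomes 1, 3 and 5 of the TAIR10.1 build, as annotated by RefSeq, and none overlaps another gene. NRT2.1 (AT1G08090, chromosome 1, 2524023 to 2526322, plus strand) and NRT2.2 (AT1G08100, chromosome 1, 2527170 to 2529120, minus strand) are neighbours that point at each other, with 847 bases and no gene between them. NRT2.4 (AT5G60770, chromosome 5, 24444365 to 24447127) and NRT2.3 (AT5G60780, chromosome 5, 24450745 to 24452964) follow each other on the plus strand, 3617 bases apart. NRT2.5 (AT1G12940) lies on chromosome 1 at 4416315 to 4418590 on the plus strand and NRT2.6 (AT3G45060) on chromosome 3 at 16477561 to 16479559 on the minus strand. NRT2.7 (AT5G14570) lies on chromosome 5 at 4695084 to 4697078 on the minus strand. NRT3.1 (AT5G50200), which RefSeq lists as WR3, lies on chromosome 5 at 20436180 to 20437815 on the plus strand.

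The sequences before 4 of the genes are shown because known repressors of NRT2 genes, described at the end, bind short letter patterns. These 4 windows were picked for display as those with the most matches to GAATC, the first pattern below. Each window runs from 250 bases before the annotated gene start to 50 bases after it, in TAIR10.1, on the strand of the gene. It was searched on both strands for GAATC and GAATATTC, the patterns known for the NIGT1 repressors (HRS1 and the HHO proteins), for TGACG, known for TGA factors, and for CACGTG, the G-box known for HY5. GAATATTC does not contain GAATC. Capitals mark matches, and GATTC is GAATC read from the other strand. The windows are chr1:2523773-2524072 for NRT2.1, chr1:2529071-2529370 (minus strand) for NRT2.2, chr5:24444115-24444414 for NRT2.4 and chr1:4416065-4416364 for NRT2.5.
NRT2.1: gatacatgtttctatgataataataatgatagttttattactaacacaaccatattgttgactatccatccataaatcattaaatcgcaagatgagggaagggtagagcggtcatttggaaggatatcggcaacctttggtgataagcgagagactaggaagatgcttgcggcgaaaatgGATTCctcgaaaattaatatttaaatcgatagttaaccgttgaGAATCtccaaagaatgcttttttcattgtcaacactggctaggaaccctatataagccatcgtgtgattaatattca
NRT2.2: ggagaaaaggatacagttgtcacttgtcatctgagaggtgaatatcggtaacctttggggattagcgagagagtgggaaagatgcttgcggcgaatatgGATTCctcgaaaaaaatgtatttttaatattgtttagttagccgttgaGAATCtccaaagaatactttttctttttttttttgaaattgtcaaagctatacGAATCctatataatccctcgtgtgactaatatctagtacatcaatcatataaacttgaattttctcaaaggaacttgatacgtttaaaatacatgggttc
NRT2.4: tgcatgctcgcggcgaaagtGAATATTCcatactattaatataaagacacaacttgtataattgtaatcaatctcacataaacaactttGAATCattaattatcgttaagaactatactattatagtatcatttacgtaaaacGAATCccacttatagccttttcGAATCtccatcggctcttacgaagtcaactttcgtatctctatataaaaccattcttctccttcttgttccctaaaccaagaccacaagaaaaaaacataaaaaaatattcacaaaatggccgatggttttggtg
NRT2.5: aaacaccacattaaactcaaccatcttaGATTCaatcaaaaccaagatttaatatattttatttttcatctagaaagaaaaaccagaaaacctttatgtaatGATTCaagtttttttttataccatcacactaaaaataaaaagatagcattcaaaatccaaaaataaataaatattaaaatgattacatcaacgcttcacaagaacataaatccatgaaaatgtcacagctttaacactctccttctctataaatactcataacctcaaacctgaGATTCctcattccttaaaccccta

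The windows of the neighbouring copies NRT2.1 and NRT2.2 aligned over 202 bases with 85.6% identity, and both windows hold a GATTC followed by a GAATC. The short pattern was found 2 times in the NRT2.1 window and 3 times each in those of NRT2.2, NRT2.4 and NRT2.5. It was found 1 time in the NRT3.1 window and not in those of NRT2.3, NRT2.6 and NRT2.7. As background, 45.1% of the windows of 27443 protein-coding genes held GAATC in either direction. That share counts windows with at least 1 match, so it is no background for repeats within a window. The longer GAATATTC was found in the NRT2.4 window alone among the members, and in 1.01% of all windows. TGACG was found 3 times in the NRT2.7 window, with 2 of these matches overlapping, and 1 time in that of NRT3.1, against 23.1% of all windows. CACGTG was in no member's window, against 7.68% of all windows. In the 1000 bases before the gene start, 87.8% of the 27443 protein-coding genes held GAATC, as did every member but NRT2.6. These matches describe letters and not binding.

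**Figure D1:**
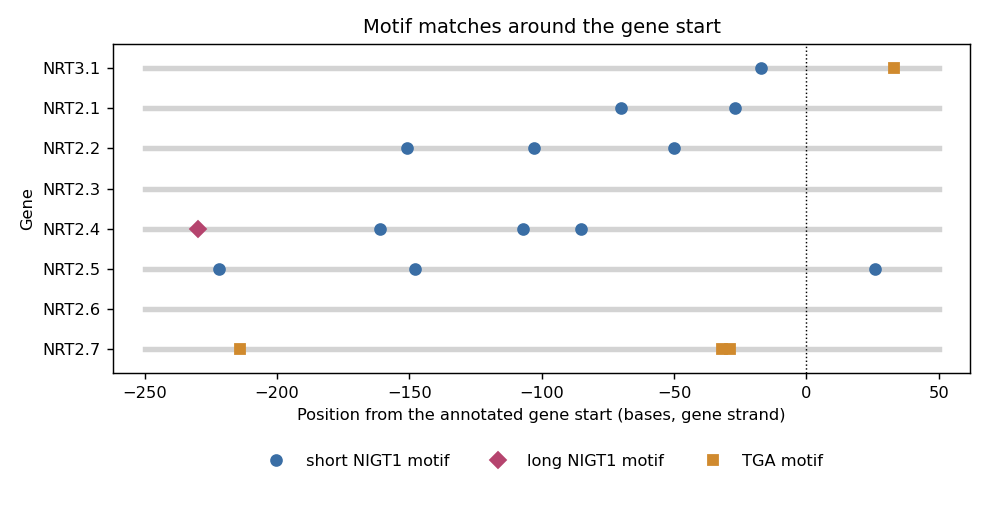
Positions of motif matches from 250 bases before to 50 bases after the annotated gene start (x axis, in bases on the gene strand) for the 8 members with values (rows). Circles are GAATC, the diamond is GAATATTC and squares are TGACG, each on either strand. NRT2.4 is the member with GAATATTC, and NRT2.3 and NRT2.6 have no match.

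Seedlings on Gln had more NRT2.1 and NRT3.1 transcript than seedlings on NH4NO3, and NRT2.1 changed more. A gene was tested if its mean over the 6 libraries was at least 1 RPKM, which held for 19284 genes and for 3 members, NRT2.1, NRT2.7 and NRT3.1. The test was limma on log2(RPKM + 1), and a gene was called at a Benjamini-Hochberg adjusted p under 0.05 over all genes tested. Fold changes are Gln over NH4NO3 on that scale, which understates changes of low genes. Of the 3 members tested, 2 were called higher and 0 lower, where 21.4% of all genes tested were called higher and 19.8% lower. None of the 3 was lower at an unadjusted p under 0.05, nor in limma with voom weights on the same genes, which called 21.3% of all genes lower. The groups did not overlap for these 2 members, as for 53.6% of all genes tested. The 5 members under the filter are described from their values and from fits without the filter.

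NRT2.1 is the main root importer. Its level was 26.1, 25.0 and 21.9 RPKM in Gln, against 4.53, 2.49 and 4.70 RPKM in NH4NO3. The lowest Gln library was thus far above the highest NH4NO3 library, and NH4NO3 replicate 2 was the lowest of all. These levels rest on 1414 to 1739 implied reads per Gln library and 149 to 279 per NH4NO3 library. The means were 24.3 ± 2.16 RPKM in Gln and 3.91 ± 1.23 RPKM in NH4NO3 (SD, n = 3 each), a ratio of 6.23. The log2 fold change was 2.4 ± 0.17 (SE, limma adjusted p = 7.3e-06), the 30th largest increase among the 19284 genes tested. Without NH4NO3 replicate 2 the log2 fold change was 2.17.

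NRT3.1 is the partner that NRT2.1 needs for transport. Its level was 90.8, 86.4 and 90.8 RPKM in Gln, against 48.3, 42.0 and 52.3 RPKM in NH4NO3. The groups did not overlap, and the highest Gln library was 1.05 times the lowest. The mean was 89.3 ± 2.53 RPKM in Gln and 47.5 ± 5.19 RPKM in NH4NO3 (SD, n = 3 each). The log2 fold change was 0.90 ± 0.08 (SE, limma adjusted p = 3.4e-05), and 0.82 without NH4NO3 replicate 2. It was the most abundant member in both groups, and 3.99% of the genes tested had a larger log2 fold change.

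NRT2.7 is a vacuolar member known for loading nitrate into seeds. Its level was 6.16, 4.75 and 5.29 RPKM in Gln, against 4.05, 5.66 and 4.40 RPKM in NH4NO3. The groups overlapped, because NH4NO3 replicate 2 was higher than Gln replicates 2 and 3. The mean was 5.40 ± 0.715 RPKM in Gln and 4.71 ± 0.849 RPKM in NH4NO3 (SD, n = 3 each). It was not called (log2 fold change 0.17, 95% interval -0.11 to 0.45, limma adjusted p = 0.31), and an increase of up to 0.45 on the log2 scale lies within the interval. Without NH4NO3 replicate 2 the groups did not overlap, and the log2 fold change was 0.29 (95% interval 0.01 to 0.57), still not called (limma adjusted p = 0.11).

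**Figure D2:**
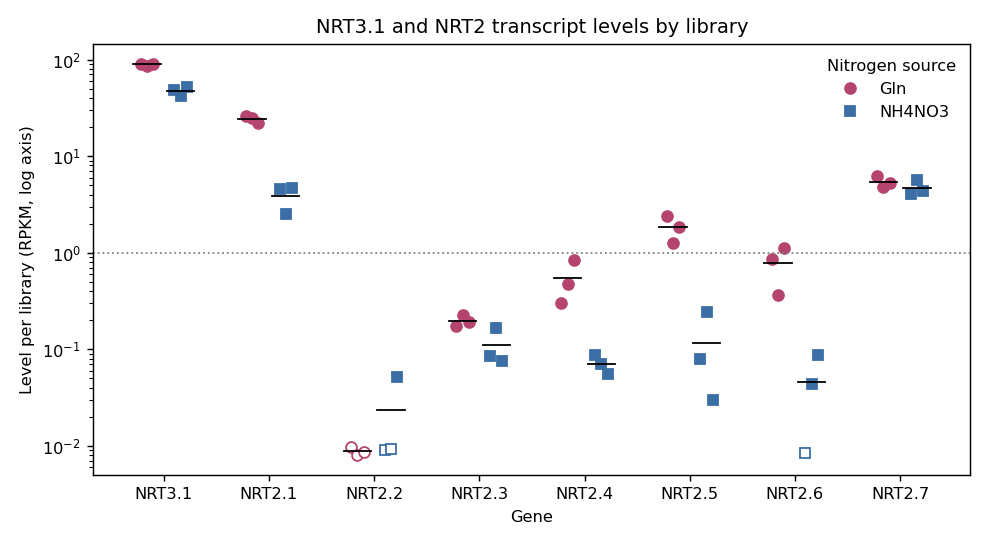
Level of each member in each library (y axis, RPKM, log axis), with Gln as circles left of NH4NO3 as squares and black bars at the group means. Open symbols mark libraries with 0 implied reads, where the value is the offset of 0.5 read in the deposited table, and the dotted line is the filter at 1 RPKM. NRT3.1 and NRT2.1 lie above that line with groups apart, NRT2.7 overlaps between groups, and NRT2.4, NRT2.5 and NRT2.6 are near the floor in NH4NO3.

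NRT2.5, NRT2.4 and NRT2.6 were rare transcripts that were higher in every Gln library than in any NH4NO3 library, as was NRT2.3. Such a separation in this direction was found for 4.06% of the 14318 genes under the filter and 16.9% of all 33602 genes. Only 3722 of the genes under the filter had at least 10 reads in all, so most had few reads with which to separate. The share among genes of like depth was not computed. NRT2.5, a transporter of long-term nitrogen starvation, had 127, 80 and 111 implied reads in Gln libraries, against 4, 13 and 1 in NH4NO3 libraries. The corresponding levels were 2.38, 1.25 and 1.86 RPKM in Gln and 0.0786, 0.243 and 0.0300 RPKM in NH4NO3. NH4NO3 replicate 2 held most of the NH4NO3 reads of this gene. Summed over libraries and scaled for depth, reads were 16.2 times as frequent in Gln as in NH4NO3 (95% exact conditional binomial interval 10.1 to 27.6). Without NH4NO3 replicate 2 this ratio was 38.4 (interval 16.3 to 119), so its size rests on that library. Such intervals cover counting error only, and reads with an excess of even numbers may not be independent.

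NRT2.6, which is 81.9% identical to NRT2.3 in its coding sequence, had 47, 24 and 69 implied reads in Gln libraries, against 0, 2 and 4 in NH4NO3 libraries. The levels were 0.853, 0.364 and 1.11 RPKM in Gln and 0.00838, 0.0432 and 0.0864 RPKM in NH4NO3. All Gln libraries were above all NH4NO3 libraries, and Gln replicate 2 was the lowest of the Gln libraries, as it was for NRT2.5. The ratio of scaled reads, Gln over NH4NO3, was 21.4 (95% counting interval 9.57 to 59.2). It was 44.4 (interval 12.1 to 370.2) without NH4NO3 replicate 3, which leaves 2 NH4NO3 reads, and 13.9 without NH4NO3 replicate 1.

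NRT2.4, a very-high-affinity transporter of young roots under nitrogen starvation, had 14, 27 and 45 implied reads in Gln libraries, against 4, 3 and 2 in NH4NO3 libraries. The levels were 0.302, 0.474 and 0.845 RPKM in Gln and 0.0874, 0.0701 and 0.0556 RPKM in NH4NO3. Here Gln replicate 3 was the highest and Gln replicate 1 the lowest, an order that differs from that of NRT2.5. The ratio of scaled reads, Gln over NH4NO3, was 8.75 (95% counting interval 4.40 to 19.8).

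The tests without the RPKM filter differed for these 3 genes in what they called. With limma on log2(RPKM + 1) for all 33602 genes, NRT2.5 (adjusted p = 0.0089) and NRT2.6 (adjusted p = 0.041) were called higher and NRT2.4 was not (adjusted p = 0.057). Called higher in that fit were 10.2% of all genes, and 1.84% of the 14318 genes under 1 RPKM. With voom weights on the implied reads, a fit added after the data were seen for the 23005 genes with at least 10 reads in all, NRT2.5 (adjusted p = 0.00050), NRT2.6 (adjusted p = 0.0050) and NRT2.4 (adjusted p = 0.0067) were all called higher. In it 19.2% of all genes were called higher, and 7.20% of the 3722 genes under 1 RPKM. The calls of the 3 genes by voom held without each library in turn, NH4NO3 replicate 2 included, with adjusted p up to 0.0318 for NRT2.4. NRT2.4 and NRT2.6 reached the minimum of 10 reads of the voom fit only with their Gln reads, whereas NRT2.5 had 18 NH4NO3 reads. The limma fit of all genes had no such minimum. All 3 genes are rare, and these calls are not a count of the family.

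NRT2.3 and NRT2.2 were at or near the limit of detection. NRT2.3 had 8, 13 and 10 implied reads in Gln libraries, against 4, 8 and 3 in NH4NO3 libraries. The RPKM of NRT2.3 did not overlap between groups, at 0.173 to 0.227 in Gln and 0.0761 to 0.166 in NH4NO3. However, the ratio of scaled reads, Gln over NH4NO3, was 1.89 with a counting interval of 0.991 to 3.77 (2.67, 1.15 to 7.19, without NH4NO3 replicate 2), and neither fit without the filter called the gene (limma adjusted p = 0.11, voom adjusted p = 0.25). NRT2.2, a root importer known to act beside NRT2.1, had 0 reads in all 3 Gln libraries, against 0, 0 and 2 in NH4NO3 libraries. A count of 0 allows up to 3 reads per library, so no fold is given, and the planned ratio of NRT2.2 to NRT2.1 was not computed. The NRT2.2 and NRT2.1 coding sequences are 89.4% identical over 1569 aligned bases. Of all 50-base windows of the NRT2.2 coding sequence, 11.4% also occur in NRT2.1. The deposited multi-read ratio, a fraction per gene whose name points to reads placed at several loci, was 0.0143 for NRT2.1, 0.00970 for NRT2.2 and 0 for the other 6 members with values.

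The makeup of the family's transcript pool differed between the groups. The summed level of the 7 NRT2 genes was 36.0, 32.0 and 31.2 RPKM in Gln, against 8.85, 8.69 and 9.40 RPKM in NH4NO3. NRT2.1 made up 73.5% ± 3.99 of this sum in Gln and 43.3% ± 12.6 in NH4NO3 (SD, n = 3 each). NRT2.7 made up 16.3% ± 1.29 in Gln and 52.6% ± 10.9 in NH4NO3. The order of the 2 genes in NH4NO3 rests on replicate 2, where NRT2.7 made up 65.2% and NRT2.1 28.7%. In replicates 1 and 3 NRT2.1 was the larger, with 51.2% and 49.99%, beside 45.8% and 46.8% for NRT2.7. The order of levels in Gln was NRT3.1, NRT2.1, NRT2.7, NRT2.5, NRT2.6, NRT2.4, NRT2.3 and NRT2.2, and of these neighbours only NRT2.6 and NRT2.4 overlapped. In NH4NO3, NRT3.1 was first with no overlap, NRT2.7 and NRT2.1 overlapped, and the other 5 overlapped from each to the next.

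**Figure D3:**
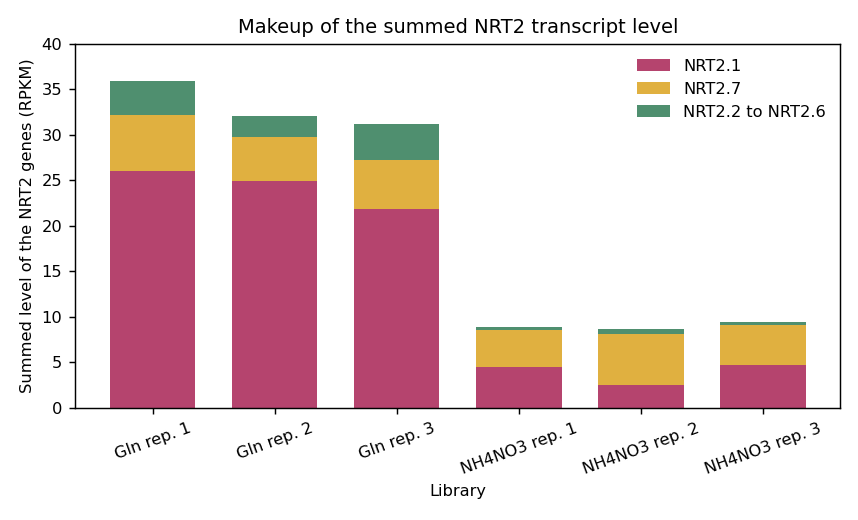
Summed level of the 7 NRT2 genes in each library (y axis, RPKM), with Gln libraries left of NH4NO3 libraries and bars split into NRT2.1, NRT2.7 and the sum of NRT2.2 to NRT2.6. The sums lie between 31.2 and 36.0 RPKM in Gln and between 8.69 and 9.40 RPKM in NH4NO3, and the NRT2.7 part is of like height in both.

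Transporter and partner did not move in proportion. The ratio of NRT3.1 to NRT2.1 was 3.48, 3.46 and 4.14 in Gln libraries, against 10.7, 16.8 and 11.1 in NH4NO3 libraries, and this ratio does not depend on how libraries are scaled. The groups did not overlap, and NH4NO3 replicate 2 had the highest ratio. The mean log2 ratio differed by -1.78, Gln minus NH4NO3 (2-sided exact permutation test, p = 0.10, the smallest that 3 against 3 libraries can give). Without NH4NO3 replicate 2 the difference was -1.57.

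**Figure D4:**
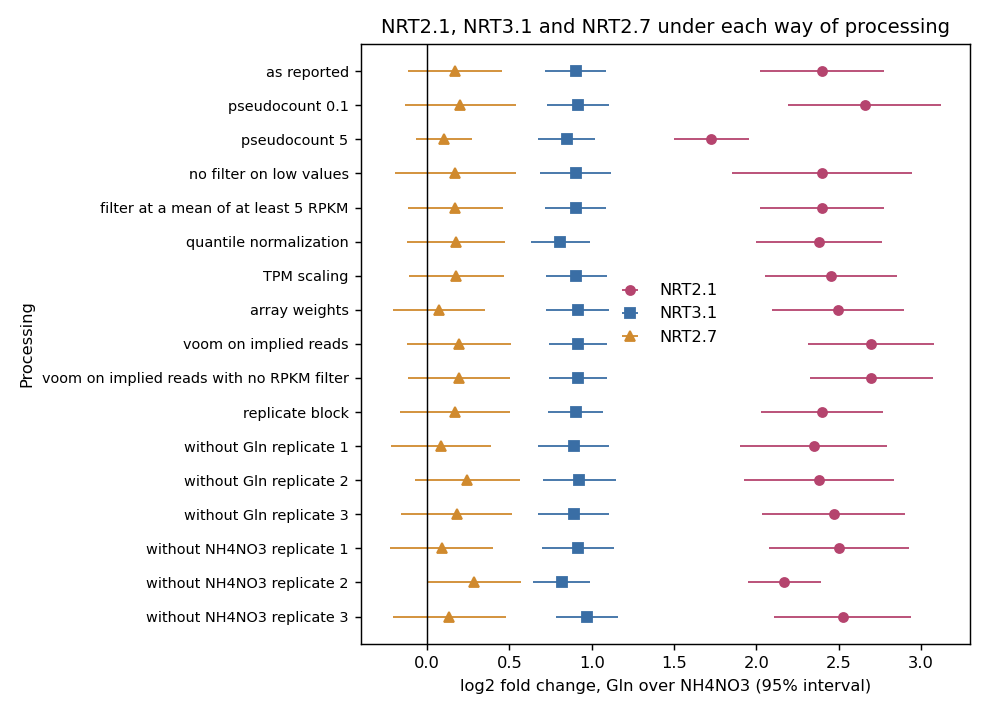
Log2 fold change of Gln over NH4NO3 (x axis) for NRT2.1, NRT3.1 and NRT2.7 under each way of processing (rows), with 95% intervals from limma. NRT2.1 and NRT3.1 stay above 0 in every row, and NRT2.1 is lowest, at 1.73, with a pseudocount of 5.

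By the likeness of their pattern, many genes resembled NRT2.1 and NRT3.1. Among the 13978 other genes that averaged 5 RPKM or more, 1453 had a Pearson correlation above 0.95 with NRT2.1 over the 6 libraries, and 1400 had one with NRT3.1, on the log2(RPKM + 1) scale. The libraries form 2 groups, so these values mostly describe the difference between the groups. Most like NRT2.1 were AT2G17500, an auxin efflux carrier family gene (r = 0.999), the copper-exporting ATPase gene RAN1 (r = 0.999), the vacuolar sorting receptor gene VSR7, the exostosin family gene AT3G57630 and ChiC. Most like NRT3.1 were EDS5 (r = 1.00), the ammonium transporter gene AMT1;1 (r = 0.999), the glutathione peroxidase gene GPX6, the urea transporter gene DUR3 (r = 0.998) and the aspartyl protease gene AT3G51330.

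Among known regulators of NRT2 genes or of the NRT2.1 protein, the repressors BT1, BT2 and HRS1 were far lower in Gln and the phosphatase gene CEPH was far higher. Of 36 regulators on a list, 31 passed the filter. Of these, 7 were called higher, 16 lower and 8 were not called, and the median log2 fold change was -0.31. Over all genes tested 41.2% were called and the median was -0.02. Without NH4NO3 replicate 2, 3 regulators were higher, where 17.1% of all genes tested were. The following describes levels and not activity, which for many of these proteins is set after translation.

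Of the 10 repressors tested, 9 were called lower and 0 higher, where 19.8% of all genes tested were called lower. The list was chosen with earlier results of these data known, so this count and those of the other roles are descriptions and not tests. HNI9 was not called, at 0.16 on the log2 scale (limma adjusted p = 0.061). HRS1 and the HHO proteins are the NIGT1 family, which binds the GAATC and GAATATTC patterns shown above. HRS1 was at 2.09, 2.81 and 2.37 RPKM in Gln, against 28.7, 28.3 and 29.5 RPKM in NH4NO3 (log2 fold change -3.13 ± 0.09 SE, limma adjusted p = 6.1e-08). HHO1 was at 0.147 ± 0.0398 RPKM in Gln and 2.35 ± 0.219 RPKM in NH4NO3, with 16 implied reads in all Gln libraries. It passed the filter only through its NH4NO3 level, and without it 8 of 9 repressors were lower. HHO2 fell by 0.69 and HHO3 fell by 0.53 on the log2 scale. BT1 and BT2, scaffold proteins known to hold down NRT2.1 and NRT2.4, were also lower. BT2 was at 8.00, 7.86 and 6.70 RPKM in Gln, against 89.4, 119 and 99.8 RPKM in NH4NO3, a log2 fold change of -3.60, and BT1 fell by 2.96 on that scale. Of the LBD repressors of nitrate-response genes, LBD39 fell by 1.20, LBD38 fell by 0.63 and LBD37 fell by 0.48 on the log2 scale.

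CEPH (AT4G32950) encodes a type 2C protein phosphatase known to activate the NRT2.1 protein by removing a phosphate. It had the largest increase on the list, with 29.0, 34.4 and 31.4 RPKM in Gln against 2.49, 1.99 and 3.39 RPKM in NH4NO3. The groups were far apart, and the log2 fold change was 3.18 ± 0.13 (SE, limma adjusted p = 4e-07). CEPD1 (AT1G06830) and CEPD2 (AT2G47880), glutaredoxins that carry a nitrogen-demand signal from shoot to root and are known to induce CEPH, were lower. CEPD1 was at 5.19 ± 1.33 RPKM in Gln and 8.07 ± 0.850 RPKM in NH4NO3 (SD, n = 3 each; limma adjusted p = 0.011). CEPD2 was at 6.01 ± 1.97 RPKM in Gln and 10.8 ± 3.1 RPKM in NH4NO3 (limma adjusted p = 0.021), with groups that overlapped. The call of CEPD2 was lost without any of 4 libraries, Gln replicate 1 or 2 or NH4NO3 replicate 2 or 3, with adjusted p of 0.0608 to 0.0722. Without a filter on low values, limma on log2(RPKM + 1) called neither (CEPD1 limma adjusted p = 0.088, CEPD2 limma adjusted p = 0.15). The voom fit without the RPKM filter, added after the data were seen, called both lower (CEPD1 voom adjusted p = 0.0228, CEPD2 voom adjusted p = 0.0167). AT2G30540, also on the list with these glutaredoxins, was not called (limma adjusted p = 0.070). The CEP peptide genes on the list, ligands that report nitrogen-poor roots, were under the filter. Their receptor genes CEPR1 (limma adjusted p = 0.088) and CEPR2 (limma adjusted p = 0.61) were not called.

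Genes of nitrate sensing and calcium signalling went both ways, with 4 of 8 tested higher and 3 lower, where 21.4% of all genes tested were higher and 19.8% lower. CIPK8, which was among those higher, was not called without NH4NO3 replicate 2 (limma adjusted p = 0.0675), nor was CPK30, described below. In that fit 17.1% of all genes tested were higher. NRT1.1, a dual-affinity transporter that also acts as a nitrate sensor, was at 42.6 ± 5.20 RPKM in Gln and 78.5 ± 2.19 RPKM in NH4NO3 (SD, n = 3 each; limma adjusted p = 6.1e-05). Of the calcium-dependent kinases that phosphorylate NLP7, CPK10 rose by 0.52 and CPK32 fell by 0.59 on the log2 scale. CPK30, the other such kinase on the list, rose by 0.23 (limma adjusted p = 0.042), a call that was lost without any library other than Gln replicate 3, with adjusted p of 0.0608 to 0.147. Among activators of transcription 2 of 7 tested were higher (TCP20, HY5) and 2 lower (TGA4, NRG2), a count close to the shares of all genes called. Without NH4NO3 replicate 2 the calls of TCP20 (limma adjusted p = 0.0759), HY5 (limma adjusted p = 0.0514) and TGA4 (limma adjusted p = 0.0663) were lost. TCP20 was also lost without Gln replicate 1 or 2 or NH4NO3 replicate 1, and HY5 without Gln replicate 2. NLP7, the main transcription factor of the nitrate response, was at 17.0 ± 1.67 RPKM in Gln and 17.0 ± 1.1 RPKM in NH4NO3, and was not called (log2 fold change 0.00, 95% interval -0.20 to 0.19). NRG2 (AT3G60320), another regulator of the nitrate response, fell by 0.66 on the log2 scale.

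**Figure D5:**
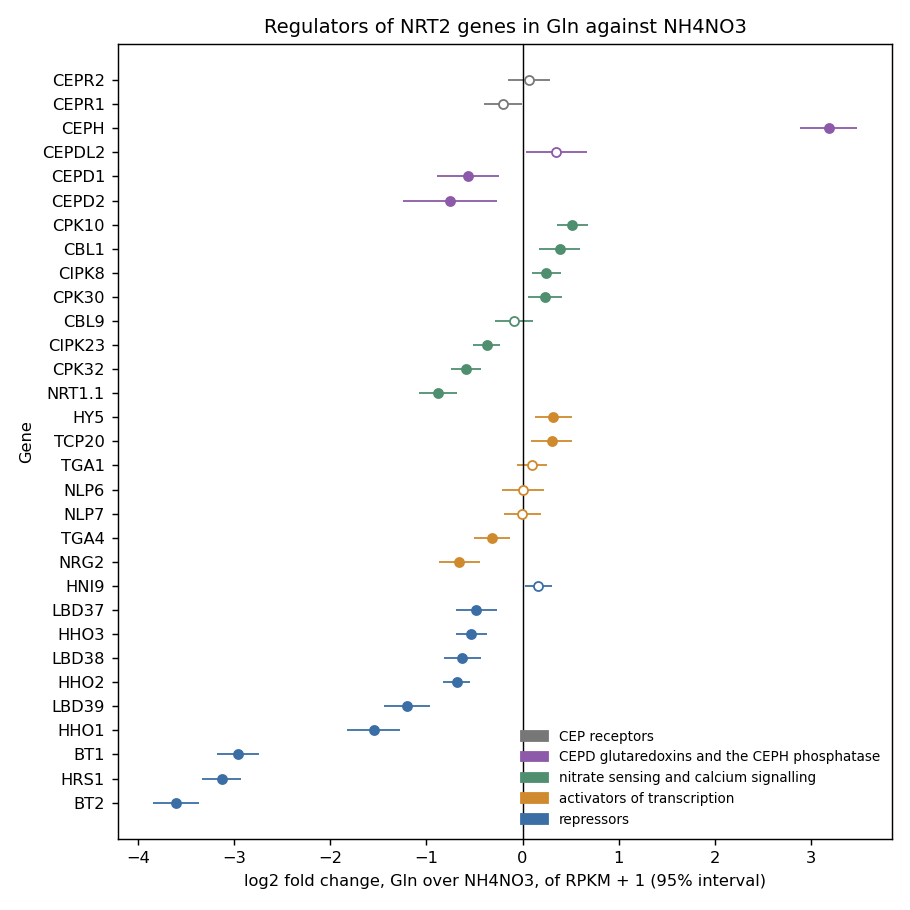
Log2 fold change of Gln over NH4NO3 on the RPKM + 1 scale (x axis, with 95% intervals from limma) for the 31 tested regulators (rows), coloured by role. Filled points passed an adjusted p of 0.05 and open points did not. The repressors other than HNI9 lie below 0, with BT2 at -3.60, and CEPH lies at 3.18.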

How the data were processed

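RNA of whole seedlings was sequenced from 3 Gln and 3 NH4NO3 samples, with libraries from a TruSeq RNA kit per the labels. The authors deposited, for each gene, RPKM values with TMM-scaled library sizes (the scaling per the file's title), a length in kilobases, and a multi-read ratio. The deposited ratio is a fraction between 0 and 1 with no definition. The submitters' processing notes name TAIR10 and SAMtools, and no aligner or counter is given in the sources used here. Multiplied by gene length, values up to 20 reads were nearly all a whole number of reads plus 0.5, times a constant of the library. Reads recovered in this way fell within 0.05 of a whole number for 98.1% to 98.8% of values up to 20 reads.

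The main test was limma 3.58.1 (R 4.3.3) with a mean-variance trend on log2(RPKM + 1), for genes averaging at least 1 RPKM, after trials on simulated data. RPKM are not counts, so voom on the recovered reads served only as an alternative. Of the 33602 loci, 32835 matched RefSeq TAIR10.1, which supplied positions and promoter sequences. Pairs of libraries of 1 group differed by 6.56 to 14.4 times the counting variance, so none was a second copy. Named genes were all members, called regulators with a log2 fold change of at least 0.5 in size, and the 5 genes most like NRT2.1 and NRT3.1. Other genes named in the text (LBD37, HNI9, NLP7, CPK30, CIPK8, CEPR1, CEPR2, AT2G30540, TCP20, HY5, TGA4, LHCB1.3, RBCS1A, RBCS3B) were chosen after their values were seen. Alternatives were pseudocounts, filters, scalings, weights, a replicate block and leaving out each library. Members and lists were chosen with earlier results of these data known. Counting intervals cover counting error only.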

Additional observations from a re-analysis of the deposited data

How the results depend on the processing

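Over 22 alternatives, NRT2.1 (log2 fold change 1.73 to 2.85), NRT3.1 (0.81 to 0.99) and CEPH (2.26 to 3.82) were called higher in each, NRT2.7 (0.07 to 0.34) in none, and no member was called lower. The number of members higher was 4 with no filter on low values, where 10.2% of all genes were higher. It was 5 with voom and no RPKM filter, where 19.2% of all genes were higher. It was also 5 in that fit without each library in turn, where 15.0% to 18.3% were higher. The added members are rare and do not make a count of the family. In the voom fit NRT2.4 and NRT2.6 reached the minimum of 10 reads only with their Gln reads. Regulators higher in Gln numbered 3 to 7 without each library in turn. The count was 3 without NH4NO3 replicate 2, where 17.1% of all genes tested were higher. It was also 3 by voom with no RPKM filter without that library, where 15.0% of all genes were higher. The difference in the log2 ratio of NRT3.1 to NRT2.1 was -1.50 with 1 RPKM added to both levels and -1.90 to -1.57 without each library in turn. Differences of the rare members changed with the pseudocount, from 0.41 at a pseudocount of 5 to 3.23 at 0.1 for NRT2.5. Deviations from group means correlated at -0.10 to -0.01 between libraries of equal replicate number, and at -0.01 to 0.10 between those of unequal number. Such values are not independent and cannot show whether samples were paired in the experiment. With the number as a replicate block 7274 genes were called, against 7942. The voom fits without an RPKM filter were added after the data were seen. The planned ratio of NRT2.2 to NRT2.1 was not run, with NRT2.2 at 0 reads in 5 of 6 libraries. HHO1 could not be fitted at a filter of 5 RPKM. At this depth NRT2.2 had too few reads for a fold, and NRT2.3 to NRT2.6 rested on 6 to 18 NH4NO3 reads each. The ratios of scaled reads without each library in turn were also added after the data were seen.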
